A study of Mus musculus with 12 samples.

Results

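The expression of 10 mouse genes of lipoprotein assembly and transport, Apob, Apoa1, Apoa2, Apoa4, Apoa5, Apoc1, Apoc3, Apoe, Apom and Mttp, was followed in whole liver. They were taken as a named list and matched by symbol to the Ensembl genes of the deposited count table, and all 10 were found among its 24187 genes and passed the filter on low counts that left 22581 genes to test. The livers came from C57BL/6J mice in 3 groups, although the study's experimental design names the APAP mice as C57BL/6JOlaHsd. Control mice (3 livers) received no treatment. The other mice received, by the labels, 350 mg/kg acetaminophen (APAP, paracetamol), a drug whose overdose kills hepatocytes around the central veins, and then either PBS as vehicle (5 livers) or human alternatively activated macrophages (hAAM, 4 livers), which are macrophages grown from blood monocytes and polarised with IL-4 and IL-13. By the study's methods the mice were 10 to 12 weeks old, were fasted for 12 h before the APAP injection, and received hAAM 16 h after it. The sources disagree on the dose, since the labels give 350 mg/kg for these livers while the study presents the sequencing with its severe model, which used 500 mg/kg. They also disagree on the time of culling, given as 16 h after treatment for that model and as 36 h after APAP in the methods. The methods put mice given saline in place of APAP under the same fast, but the labels call these controls untreated, and which of the 2 they were, like the sex of the sequenced mice, is not given in the sources used here. The vehicle against control comparison asks how these genes differed after APAP. If the controls were not fasted and injected, the parts of injury, fast and injection cannot be told apart in any comparison with control. The hAAM against vehicle comparison asks whether the cells changed the 10 genes.

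Lipoproteins carry triglyceride and cholesterol through the blood in a shell of phospholipid and apolipoproteins. Hepatocytes build very low density lipoprotein (VLDL) around a single molecule of apolipoprotein B, which the microsomal triglyceride transfer protein encoded by Mttp loads with lipid in the endoplasmic reticulum. The same cells secrete apolipoproteins A-I and A-II, the main proteins of high density lipoprotein (HDL), and small exchangeable apolipoproteins that set how fast particles are lipolysed and cleared. In mice the liver supplies most plasma apolipoprotein E, and macrophages also make it.

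Of the 10 genes, 6 lie in a pair of clusters. Apoa1, Apoc3, Apoa4 and Apoa5 occupy 43.3 kb of chromosome 9 (GRCm38, 46228580 to 46271919), with 2466 bases between Apoa1 and Apoc3, 5059 between Apoc3 and Apoa4 and 25173 between Apoa4 and Apoa5. Apoc3 is on the minus strand and its 3 neighbours are on the plus strand. Apoc1 and Apoe lie 3448 bases apart on the minus strand of chromosome 7, within 9.71 kb (19689481 to 19699188). The others stand alone: Apob on chromosome 12 (7977648 to 8016835, plus strand), Apoa2 on chromosome 1 (171225054 to 171226379, plus strand), Apom on chromosome 17 (35128997 to 35132050, minus strand) and Mttp on chromosome 3 (138089854 to 138144968, minus strand).

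The sequence before the start is shown for the chromosome 9 genes with a RefSeq promoter entry, because these neighbours differed in how far they moved, and for Apob, which holds the most counts of the 10. Each is given 5′ to 3′ on the strand of its gene, from the RefSeq promoter table (GRCm38.p6). Each stops before the first base that GENCODE annotates as transcribed in that gene, and capitals mark matches to the letters searched. The Apoa1 stretch is chr9:46228380-46228579, the Apoa4 stretch is chr9:46240594-46240695, the Apoa5 stretch is chr9:46268383-46268632 and the Apob stretch is chr12:7977427-7977647, all on the plus strand. The Apoa4 stretch also overlaps an exon of Gm47528, annotated on the opposite strand.
Apoa1: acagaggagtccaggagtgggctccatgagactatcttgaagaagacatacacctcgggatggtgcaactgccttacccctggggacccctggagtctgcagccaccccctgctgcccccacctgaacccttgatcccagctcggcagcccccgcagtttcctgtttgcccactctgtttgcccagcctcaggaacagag
Apoa4: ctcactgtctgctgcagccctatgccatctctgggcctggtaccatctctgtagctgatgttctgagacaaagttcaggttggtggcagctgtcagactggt
Apoa5: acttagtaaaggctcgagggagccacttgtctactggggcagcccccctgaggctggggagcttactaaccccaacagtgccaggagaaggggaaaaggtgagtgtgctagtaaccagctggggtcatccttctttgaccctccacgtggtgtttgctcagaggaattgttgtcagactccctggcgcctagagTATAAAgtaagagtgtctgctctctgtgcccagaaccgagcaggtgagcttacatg
Apob: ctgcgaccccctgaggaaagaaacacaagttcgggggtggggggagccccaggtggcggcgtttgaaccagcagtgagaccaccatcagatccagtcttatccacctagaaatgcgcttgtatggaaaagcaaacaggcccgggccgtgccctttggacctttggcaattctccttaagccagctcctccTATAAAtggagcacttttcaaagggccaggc

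Matches to 4 strings of letters, none of which contains another, are given for the 250 bases before the RefSeq start, on both strands. The strings were TATAAA (the core element bound by TBP), CCAAT (the element bound by NF-Y), AGGTCA (a nuclear receptor half-site) and CAAAGTCCA (an HNF4 type site). Of the 10 genes, 8 had an entry, and Apoc1 and Apoc3 had none. TATAAA was found in 3 of the 8, beginning 60 bases before the start of Apob, 56 before Apoa5 and 212 before Apoa2, and in 12.4% of 32817 such windows of all genes. CCAAT was found in Apoa2 alone, 164 bases before its start, and in 33.8% of all windows. AGGTCA was in none of the 8 windows and in 14% of all. The HNF4 type string was likewise in none and in 0.384% of all. The window of Mttp begins 12041 bases from the start of its principal GENCODE transcript, and it and the window of Apom lie almost wholly within the annotated gene, so neither is shown.

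The livers held 60870399 to 74056505 counts in control, 50859599 to 61826952 in vehicle and 47391650 to 55379420 in hAAM. The trimmed mean of M-values (TMM) factors, which multiply these totals, were 0.832 to 0.859 in control, 1.02 to 1.13 in vehicle and 0.933 to 1.14 in hAAM, so every injured liver was scaled down against every control. When only library size was used, the typical gene stood 0.357 above control in vehicle and 0.317 in hAAM on the log2 scale, and results that turn on this are marked. Vehicle replicate 3 and hAAM replicate 4 were nearly identical. Their counts differed, at the median gene, 1.19 times as much as counting noise alone allows, while the remaining 35 pairings of injured livers gave 2.19 to 4.28. Their levels of the 10 genes stood in ratios of 0.950 to 1.03. Both were kept as separate samples, and without them 5 of the 10 genes were called in vehicle against control, 3 in hAAM against control and 0 between hAAM and vehicle, where 4, 3 and 0 were called with them. Of all genes, 30% and 19.6% were then called against control in vehicle and hAAM, against 29.8% and 20.7% with them. All 12 livers held the Y-linked gene Ddx3y, at 3064 to 4281 counts, and few counts of Xist, 10 to 149, the pattern of male mice. The labels number the replicates without saying that each is a separate animal, so p-values measure the spread between these samples, which may in part be technical.

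Together the 10 genes took 3.00% ± 0.203 of all counts in control (SD, n = 3), 3.04% ± 0.294 in vehicle (n = 5) and 3.15% ± 0.397 in hAAM (n = 4), and the 3 ranges overlapped. Without the 10 most abundant genes of each liver, of which Apob was 1, the shares were 1.84%, 1.99% and 2.11%. On the TMM scale used for the tests below, their sum was 35542 ± 2483 counts per 1000000 (CPM) in control, 28386 ± 3867 in vehicle and 30651 ± 6309.6 in hAAM, lower on average in injured livers where the share of counts was not, with ranges that again overlapped. Apob ranked between 4 and 7 among all genes by count in every liver.

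On a per-length scale (TMM scaled counts per 1000000, CPM, divided by kb of annotated exon), Apoa1 led the control livers at 4317 ± 434 CPM per kb (SD, n = 3). Apoa2 followed at 4072 ± 831 and Apoe at 3292 ± 274, and these 3 ranges overlapped from each neighbour to the next. Apoc1 (1424 ± 82.2), Apob (1301 ± 64.9) and Apoc3 (671 ± 108) came next, each with a range that did not meet its neighbours'. Apoa5 (199 ± 27.9) and Apom (160 ± 17.8) overlapped. Apoa4 (83.6 ± 23.3) and Mttp (47.4 ± 4.05), the transfer protein rather than a particle protein, were lowest and did not overlap. The exon length is the union of all annotated exons of a gene, which can exceed the length of its transcripts, so this order may depend in part on the annotation. In the injured livers Apoa4 stood at 406 ± 178 in vehicle (n = 5) and 326 ± 163 in hAAM (n = 4). It was thus above the mean of Apoa5, 250 ± 36.1 and 256 ± 53.8, though their ranges overlapped in both groups.

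**Figure D1:**
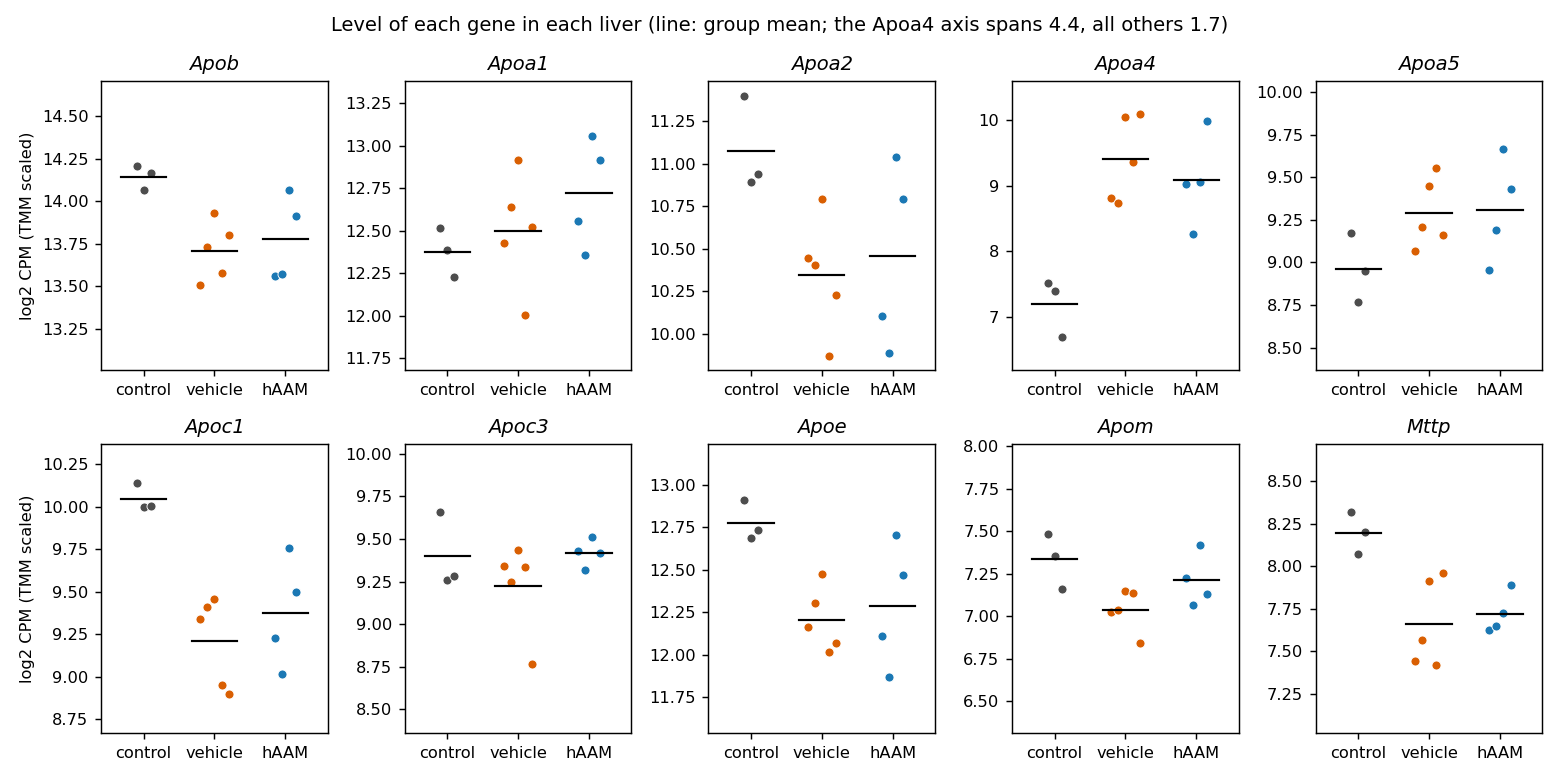
Level of each gene in each liver as log2 TMM scaled CPM, with control (n = 3) in grey, vehicle (n = 5) in orange, hAAM (n = 4) in blue and a line at each group mean. Every injured liver lies above every control for Apoa4 and below every control for Apob, Apoc1 and Mttp, while vehicle and hAAM overlap in all 10 panels.

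In livers given APAP with vehicle, Apoa4 stood higher than in control and Apoc1, Apoe and Mttp lower. Of the 10 genes, 1 was called higher and 3 lower at a false discovery rate (FDR) under 0.05, in edgeR's quasi-likelihood test with adjustment over all genes tested. Of all 22581 genes, 15% were called higher and 14.8% lower. The vehicle and control livers did not overlap for 7 of the 10, against 34.8% of all genes. The median log2 fold change was -0.36 over the 10 and 0.01 over all genes. DESeq2 called 7 of the 10, adding Apoa2, Apob and Apom, all lower, and called 17.1% of all genes higher and 16.9% lower. Fewer cells of a type and less RNA per cell cannot be told apart in these bulk samples.

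In the assembly pair, both means were lower in injured livers, and Mttp passed the test. Mttp, the lipid transfer protein, was at 319, 269 and 294 CPM in control replicates 1 to 3, at 174, 189, 241, 171 and 249 in vehicle replicates 1 to 5 and at 197, 201, 211 and 237 in hAAM replicates 1 to 4. All 9 injured livers were below the lowest control. Mttp fell by 0.52 on the log2 scale in vehicle (SE 0.136, FDR 0.0138) and by 0.48 in hAAM (SE 0.143, FDR 0.0349). The vehicle call was lost without control replicate 1 (FDR 0.059). In the hAAM comparison it was lost without control replicate 1 (FDR 0.117), control replicate 3 (0.0922), hAAM replicate 1 (0.0907) or hAAM replicate 2 (0.0846). Under library size alone neither call remained (FDR 0.285 and 0.336).

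Apob, the structural protein of VLDL, was at 18896, 17134 and 18364 CPM in control. It was at 11640, 13568, 15618, 12241 and 14260 CPM in vehicle and at 12088, 12177, 17129 and 15425 in hAAM. No injured liver reached the lowest control, although hAAM replicate 3 lay just below it. The log2 difference from control was -0.43 in vehicle (SE 0.188, FDR 0.104) and -0.35 in hAAM (SE 0.198, FDR 0.226), neither of which passed in edgeR. In the vehicle comparison limma voom gave an FDR of 0.0477 and DESeq2 0.0116. Mttp overlaps 2 genes annotated on the opposite strand, Trmt10a and Gm43691. Trmt10a held 183 to 268 counts per liver and Gm43691 44 to 97, against 10118 to 17094 for Mttp.

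Among the HDL proteins, Apoa2 and Apom had lower means in injured livers and Apoa1 higher ones, and none passed the test. Apoa1, the main HDL protein and the activator of LCAT, was at 5862, 5356 and 4790 CPM in control, at 5503, 6390, 7721, 4102 and 5877 in vehicle and at 6017, 5242, 8533 and 7731 in hAAM. The groups overlapped. The log2 difference from control was 0.15 in vehicle (SE 0.222, FDR 0.647, 95% interval -0.33 to 0.63) and 0.37 in hAAM (SE 0.233, FDR 0.287, interval -0.14 to 0.87). The vehicle value was 0.035 without vehicle replicate 3, 0.078 without control replicate 3 and 0.26 without vehicle replicate 4. Under library size alone Apoa1 was called higher in both groups (FDR 0.0404 and 0.0193).

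Apoa2, the next most abundant HDL protein, was at 2701, 1896 and 1964 CPM in control, at 1391, 1355, 1772, 936 and 1197 in vehicle and at 1101, 947, 2107 and 1775 in hAAM. All vehicle livers were below the lowest control, and hAAM replicate 3 lay above the 2 lower controls. The log2 difference was -0.72 in vehicle (SE 0.267, FDR 0.0609) and -0.56 in hAAM (SE 0.282, FDR 0.178). In vehicle it passed without vehicle replicate 3 (-0.84, FDR 0.0359) and with both near-identical livers left out (FDR 0.0445). It also passed without hAAM replicate 2 (FDR 0.0435) or hAAM replicate 3 (FDR 0.0393), which enter that comparison through the shared estimate of spread. Under library size alone the Apoa2 difference was -0.38 in vehicle (FDR 0.181) and -0.29 in hAAM (FDR 0.353).

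Apom, which carries sphingosine-1-phosphate on HDL, was at 179, 164 and 143 CPM in control. It was at 130, 132, 142, 141 and 115 in vehicle and at 150, 134, 171 and 140 in hAAM. Vehicle lay just below control without overlap, and hAAM overlapped control. The log2 difference was -0.30 in vehicle (SE 0.106, FDR 0.0503) and -0.12 in hAAM (SE 0.111, FDR 0.463). The vehicle difference passed without control replicate 3 (FDR 0.041), vehicle replicate 3 (FDR 0.0462) or hAAM replicate 3 (FDR 0.0321), and it turned to 0.05 under library size scaling. The hAAM value was -0.042 without control replicate 1, -0.073 without hAAM replicate 2, -0.20 without control replicate 3 and -0.20 without hAAM replicate 3.

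Apoa4 moved most. It encodes apolipoprotein A-IV, made mainly by the intestine and in mice also by the liver, where it is known to follow hepatic lipid load and fasting. It was at 183, 169 and 103 CPM in control, at 451, 425, 1061, 657 and 1091 in vehicle and at 520, 306, 534 and 1008 in hAAM. The lowest injured liver, hAAM replicate 2, was above the highest control. Apoa4 rose by 2.28 on the log2 scale in vehicle, a 4.86-fold rise (SE 0.442, FDR 0.00318), and by 1.96 in hAAM, a 3.90-fold rise (SE 0.446, FDR 0.011). By count it ranked 744, 746 and 1339.5 among all genes in control and between 81 and 261 in injured livers.

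The Apoa4 rise in vehicle was called with any single liver left out (log2 2.07 to 2.44). In hAAM the call was lost without control replicate 3, the lowest control (1.75, FDR 0.0517). With both near-identical livers left out the log2 rises were 2.12 in vehicle and 1.58 in hAAM (FDR 0.00296 and 0.0183). Apoa4 also spread most within groups, with a coefficient of variation of 43.7% in vehicle and 50.1% in hAAM. A pair of annotated genes overlap it on the opposite strand. Gm47528 had 7 to 9 counts in control, 29 to 254 in vehicle and 24 to 74 in hAAM, and Gm10680 had at most 11 in any liver, against 5237 to 73783 for Apoa4. How the counting used strand is not given in the sources used here.

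The other A-type and C-type genes of the chromosome 9 cluster showed smaller differences, none of which passed. Apoa5, a low-abundance protein that promotes lipolysis of triglyceride-rich particles, was at 576, 436 and 494 CPM in control, at 536, 592, 699, 751 and 574 in vehicle and at 497, 584, 812 and 689 in hAAM. The groups overlapped. The log2 difference was 0.33 in vehicle (SE 0.171, FDR 0.166) and 0.36 in hAAM (SE 0.178, FDR 0.168), the latter 0.23 without hAAM replicate 3. Under library size alone Apoa5 was called higher in both groups (FDR 0.0048 and 0.0105). An annotated antisense gene, Gm47544, overlaps 1331 bases of Apoa5 and was not analysed here.

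Apoc3, an inhibitor of lipolysis and of particle uptake, was at 808, 613 and 621 CPM in control. It was at 648, 607, 691, 646 and 434 in vehicle and at 688, 637, 729 and 683 in hAAM. Vehicle replicate 5 was the lowest liver and control replicate 1 the highest, and the groups overlapped. The log2 difference was -0.17 in vehicle (SE 0.150, FDR 0.419) and 0.01 in hAAM (SE 0.157, FDR 0.978). The vehicle value was -0.028 without control replicate 1 and -0.069 without vehicle replicate 5. The neighbours of Apoc3 on either side are Apoa1, whose test did not pass, and Apoa4, which rose.

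The neighbours Apoc1 and Apoe both had lower levels after APAP. Apoc1, a small protein that inhibits lipolysis and uptake of remnants, was at 1130, 1023 and 1025 CPM in control, at 647, 680, 704, 495 and 477 in vehicle and at 598, 517, 865 and 723 in hAAM. All injured livers were below all controls. Apoc1 fell by 0.82 on the log2 scale in vehicle (SE 0.177, FDR 0.00548) and by 0.65 in hAAM (SE 0.187, FDR 0.0298). The vehicle call held with any single liver left out (-0.88 to -0.74). The hAAM call was lost without control replicate 1 (FDR 0.0881), 2 (0.0597) or 3 (0.0719), or without hAAM replicate 1 (0.0818) or 2 (0.0769), in a fit of the 2 groups alone (0.0584), and under library size alone (0.0693).

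Apoe, the ligand by which remnants bind their hepatic receptors, was at 7703, 6602 and 6810 CPM in control. It was at 4594, 5067, 5692, 4150 and 4306 in vehicle and at 4415, 3747, 6670 and 5668 in hAAM. Vehicle lay wholly below control, and hAAM replicate 3 lay above control replicate 2. Apoe fell by 0.56 on the log2 scale in vehicle (SE 0.195, FDR 0.0463), and its difference in hAAM was -0.46 (SE 0.206, FDR 0.134). The vehicle call was near the threshold: it was lost in 9 of the 12 fits that left out 1 liver, at FDRs up to 0.138 without control replicate 1, and held without vehicle replicate 3 or without hAAM replicate 2 or 3. It was lost under library size alone (FDR 0.225). The hAAM difference passed without hAAM replicate 3 (-0.61, FDR 0.0392).

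**Figure D2:**
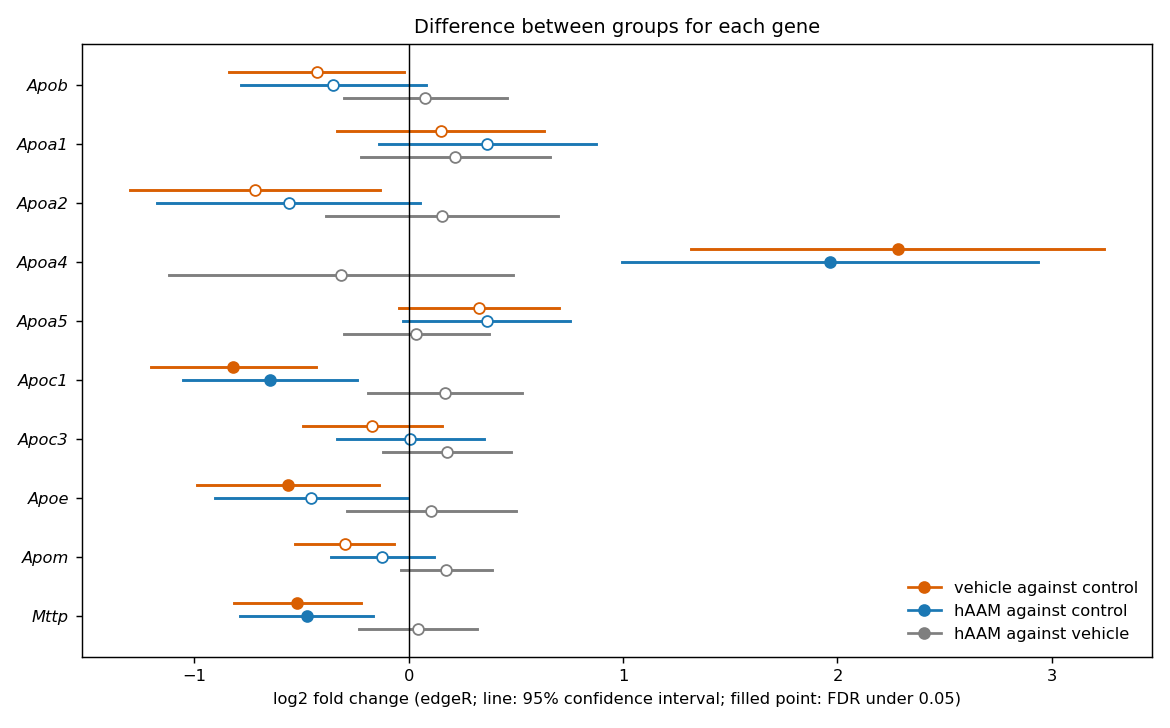
Log2 fold change of each gene in the 3 comparisons from 1 edgeR fit, with 95% confidence intervals as lines and filled points where the FDR was under 0.05. Apoa4 stands apart at 2.28 and 1.96 against control, Apoc1 and Mttp are filled below 0 in both comparisons with control, Apoe in vehicle alone, and every grey interval of hAAM against vehicle crosses 0.

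With hAAM against control, 1 of the 10 genes was called higher, Apoa4, and 2 lower, Apoc1 and Mttp. Of all genes tested 10.7% were called higher and 9.96% lower. Livers of the 2 groups did not overlap for 4 of the 10, Apoa4, Apob, Apoc1 and Mttp, against 28.5% of all genes. The median log2 fold change was -0.24 over the 10 and 0.02 over all genes. Both comparisons share the 3 control livers.

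Between hAAM and vehicle none of the 10 genes was called, at adjusted p-values of 0.966 to 0.999, and none was under 0.05 before adjustment. Of all genes 0% were called, 5.02% were under 0.05 before adjustment, and the smallest FDR was 0.792. DESeq2 and limma voom called none of the 10 either, and DESeq2 called 1 gene of all. The hAAM and vehicle livers overlapped for all 10, and 1.4% of all genes did not overlap. The estimate was above 0 for 9 of the 10 genes and below 0 for Apoa4 (-0.32, SE 0.369, 95% interval -1.12 to 0.49).

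The intervals for hAAM against vehicle were widest for Apoa4 and narrowest for Apom (0.18, SE 0.0976, interval -0.04 to 0.39). For Apob the log2 difference was 0.08 (interval -0.30 to 0.46), for Mttp 0.04 (-0.23 to 0.32) and for Apoe 0.11 (-0.29 to 0.50). For Apoa1 it was 0.22 (-0.22 to 0.66), for Apoa2 0.16 (-0.39 to 0.70) and for Apoa5 0.03 (-0.30 to 0.37). For Apoc1 it was 0.17 (-0.19 to 0.53) and for Apoc3 0.18 (-0.12 to 0.48). These widths leave room for differences in either direction. Without hAAM replicate 3, which was the highest hAAM liver for 8 of the 10 genes, the estimates of Apob, Apoa2, Apoa5 and Apoe turned negative, at -0.03, -0.06, -0.09 and -0.05.

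Most of these falls depended on how livers were scaled. Under library size alone, against control, vehicle had 3 of the 10 genes higher and 1 lower, where 38.2% of all genes were called higher and 4.92% lower. Apoa4 (2.62, FDR 0.00103), Apoa5 (0.68, FDR 0.0048) and Apoa1 (0.48, FDR 0.0404) were higher and Apoc1 (-0.48, FDR 0.0151) was lower, and without the near-identical pair Apoa1 was no longer called in vehicle. Mttp was then at -0.18 (FDR 0.285), Apoe at -0.22 (FDR 0.225) and Apob at -0.09 (FDR 0.62), and Apoc3 turned to 0.17. In hAAM the same 3 genes were higher, Apoa4 at 2.24, Apoa1 at 0.65 and Apoa5 at 0.65, and none was lower, with Apoc1 at -0.37 (FDR 0.0693) and Mttp at -0.18 (FDR 0.336). Of all genes 29% were then called higher in hAAM and 3.46% lower, so the 3 of 10 called higher stood near that share. Under this scaling 88.6% of the genes called in vehicle and 89.4% of those called in hAAM were higher, against 50.3% and 51.8% with TMM. Scaling by DESeq2 size factors gave the TMM calls: 1 higher and 3 lower in vehicle, 1 higher and 2 lower in hAAM. Against the typical gene, then, Apoc1, Apoe and Mttp fell in vehicle, while as a share of all counts only Apoc1 did so at this threshold.

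**Figure D3:**
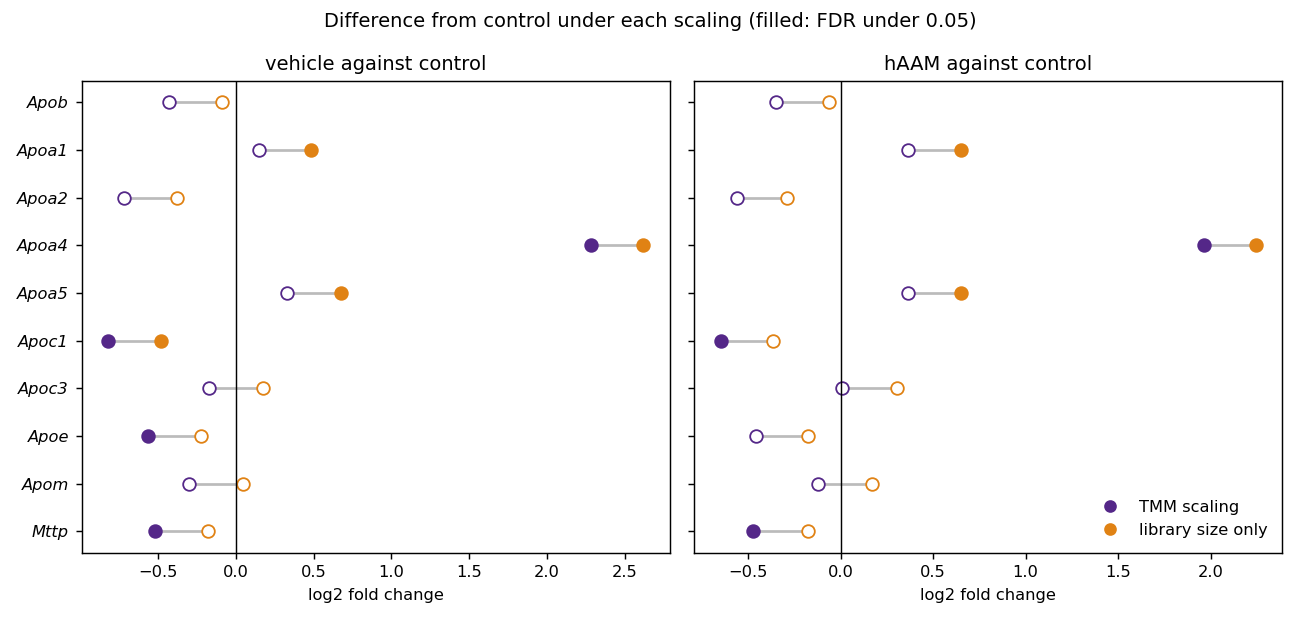
Log2 fold change of each gene from control under TMM scaling (purple) and under library size alone (orange), for vehicle on the left and hAAM on the right, filled where the FDR was under 0.05. Library size moves every gene to the right by a similar step, so Apoa4 stays far above 0, Apoc1 stays below 0, and Apoc3 in vehicle and Apom in both cross 0.

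Ratios of the counts of 2 genes within a liver need no scaling, and 5 were formed after the values had been seen. Each was put to an exact test over all splits of the livers between the groups compared, 15 tests in all. None passed after adjustment over the 15, where the smallest adjusted p-value was 0.0858. With these group sizes the smallest p-value the test could give was 0.0179 for vehicle against control and 0.0286 for hAAM against control. The ratios are therefore given as a description. Apoa4 over Apoa1 was 0.0312, 0.0315 and 0.0216 in control, 0.0820, 0.0665, 0.137, 0.160 and 0.186 in vehicle, and 0.0864, 0.0584, 0.0626 and 0.130 in hAAM. Every injured liver was above every control, and the log2 ratio differed by 2.08 in vehicle and 1.53 in hAAM.

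Apoa2 over Apoa1 was 0.461, 0.354 and 0.410 in control, 0.253, 0.212, 0.230, 0.228 and 0.204 in vehicle, and 0.183, 0.181, 0.247 and 0.230 in hAAM. All 9 injured livers were below all controls, and the log2 ratio differed from control by -0.85 in vehicle and -0.96 in hAAM. Apoc1 over Apoe was 0.147 to 0.155 in control, 0.111 to 0.141 in vehicle and 0.127 to 0.138 in hAAM. These ranges did not meet control's, and the differences were -0.27 in vehicle and -0.18 in hAAM on the log2 scale. Apoc3 over Apoa1 and Mttp over Apob overlapped control in both groups. Between hAAM and vehicle all 5 ratios overlapped.

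**Figure D4:**
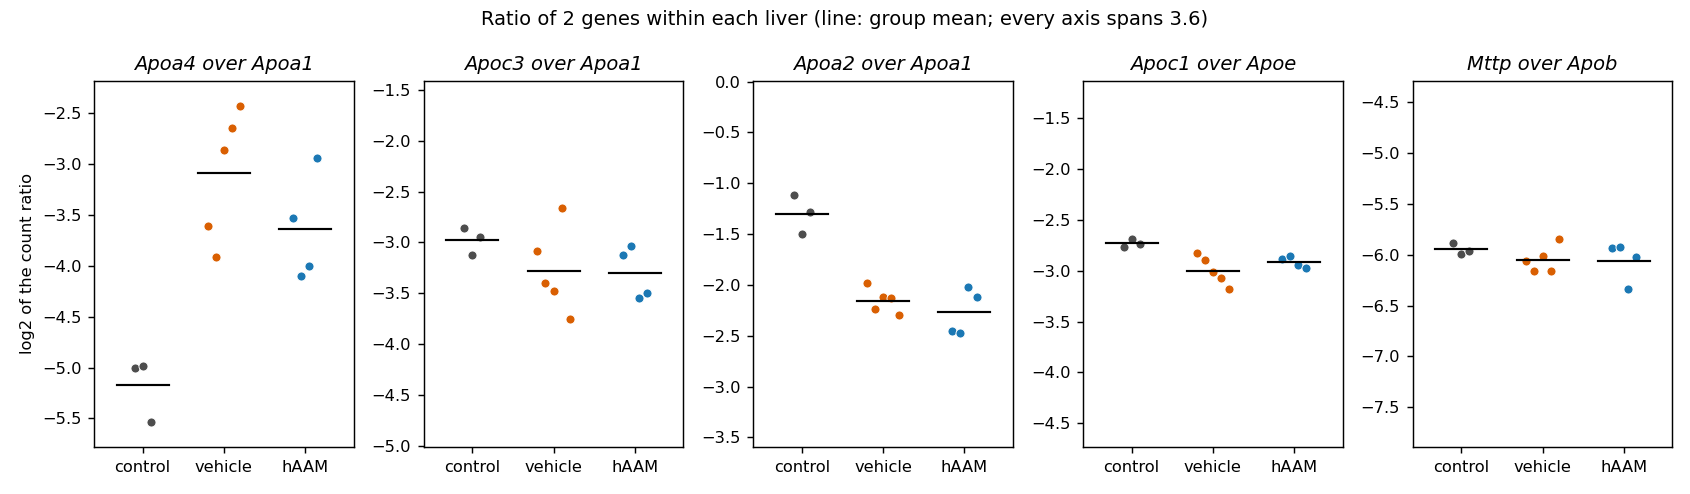
Log2 of the ratio of the counts of 2 genes within each liver for control (grey, n = 3), vehicle (orange, n = 5) and hAAM (blue, n = 4), with a line at each group mean and axes of equal span. Apoa4 over Apoa1 is higher and Apoa2 over Apoa1 lower in every injured liver than in any control, by 2.08 and -0.85 in vehicle, while Mttp over Apob overlaps.

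Genes that act beside the 10 were taken as 6 lists. Counts below are of genes that passed at an FDR under 0.05, beside 15% higher and 14.8% lower of all genes in vehicle and 10.7% and 9.96% in hAAM, and none of any list passed between hAAM and vehicle. Counts under library size alone are to be read beside its own shares of all genes, 38.2% higher and 4.92% lower in vehicle and 29% and 3.46% in hAAM. The lists were chosen with earlier results known. Leaving out the near-identical pair changed 4 of these counts by 1 gene each: 4 partners of assembly, 5 receptor genes and 7 transcription regulators then fell in vehicle, and no receptor gene rose in hAAM. Of 8 other apolipoprotein genes 7 were tested, and 3 fell in vehicle and 2 in hAAM. Saa4, a constitutive serum amyloid A protein of HDL, fell most, from 843 ± 177 CPM in control (n = 3) to 188 ± 69.7 in vehicle (n = 5) and 230 ± 57.8 in hAAM (n = 4). Its log2 differences from control were -2.16 (SE 0.290, FDR 0.000462) and -1.87 (SE 0.309, FDR 0.0027), and it stayed called under library size alone. Apon fell by 0.56 (FDR 0.00617) and 0.53 (FDR 0.0158), calls that library size alone did not keep (FDR 0.123 and 0.127), and Saa4 was the 1 gene of the list that it called in either group.

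Of 15 partners of assembly and secretion, 3 fell and none rose in vehicle, and 2 fell in hAAM, with a median log2 fold change of -0.28 in vehicle. Sar1b, the COPII GTPase that large lipoproteins need to leave the endoplasmic reticulum, fell by 0.56 in vehicle (SE 0.121, FDR 0.00566) and 0.41 in hAAM (SE 0.127, FDR 0.0386). Dgat2, which makes triglyceride, fell by 0.55 (SE 0.147, FDR 0.0149) and 0.49 (SE 0.155, FDR 0.0429). Under library size alone, other genes of the list were called. In vehicle 3 rose, among them Soat2 (0.46, FDR 0.0308), in hAAM 2 rose, and none fell in either. The list medians were then 0.07 and 0.08, below the 0.357 and 0.317 of all genes. Sar1b (-0.22 and -0.12, FDR 0.114 and 0.431) and Dgat2 (-0.21 and -0.20, FDR 0.143 and 0.198) kept their sign and were called in neither group.

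Of 9 genes of HDL formation and remodelling, 1 rose and 5 fell in vehicle and 1 rose and 2 fell in hAAM. Lipc, the hepatic lipase that trims HDL, fell from 88.3 ± 27.2 CPM to 28.2 ± 7.43 in vehicle, by 1.65 on the log2 scale (SE 0.214, FDR 0.000375), and to 46.0 ± 6.40 in hAAM, by 0.94 (SE 0.226, FDR 0.0142). Abca1, which loads apolipoprotein A-I with lipid, fell by 0.71 in vehicle (SE 0.119, FDR 0.00149), and its difference in hAAM was -0.36 (FDR 0.0588). Abcg1, a cholesterol exporter also expressed in macrophages, rose by 1.04 (SE 0.191, FDR 0.00244) and 1.18 (SE 0.198, FDR 0.00293). Lipc and Abca1 were both higher in every hAAM liver than in any vehicle liver, by 0.71 and 0.35 on the log2 scale, at an FDR of 0.966 each. With library size alone 1 gene rose and 2 fell in vehicle, and 1 rose and 1 fell in hAAM, where Lipc stayed called (FDR 0.0344).

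Of 10 lipoprotein receptors and regulators, 1 rose and 4 fell in vehicle and 1 rose and 5 fell in hAAM. Lsr, a remnant receptor, fell by 1.24 (SE 0.169, FDR 0.000511) and 0.90 (SE 0.179, FDR 0.00592). Vldlr, which is low in liver at 1.14 CPM in control, fell by 1.23 (SE 0.246, FDR 0.00374) and 0.98 (SE 0.260, FDR 0.0212). Mylip, the ligase that marks the LDL receptor for degradation, rose by 0.59 (SE 0.180, FDR 0.0265) and 0.60 (SE 0.187, FDR 0.0412). With library size alone the list stood at 4 up and 3 down in vehicle and 4 up and 2 down in hAAM, and the hAAM fall of Vldlr was not called (FDR 0.0857).

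Of 6 genes of lipoprotein lipase and its modulators, 2 rose and 1 fell in both groups. Lpl, the lipase itself, rose from 26.0 ± 10.7 CPM to 66.5 ± 17.2 in vehicle, by 1.35 (SE 0.285, FDR 0.00491), and to 93.0 ± 19.8 in hAAM, by 1.84 (SE 0.299, FDR 0.0025). Gpihbp1, its endothelial anchor, rose by 1.03 (FDR 0.000235) and 0.82 (FDR 0.00184). Lmf1, which folds the lipase, fell by 0.26 (SE 0.0574, FDR 0.00659) and 0.25 (SE 0.0602, FDR 0.0137), and was at 0.09 and 0.05 under library size alone, which called no fall in this list.

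Of 19 transcription regulators known to act on apolipoprotein genes, 2 rose and 8 fell in vehicle and 2 rose and 6 fell in hAAM. Nr5a2 fell by 0.71 (SE 0.138, FDR 0.00319) and 0.62 (SE 0.146, FDR 0.0128). Ppargc1a, a coactivator induced by fasting, rose by 1.19 (SE 0.347, FDR 0.0228) and 1.54 (SE 0.362, FDR 0.0129). Nr2f2 rose by 0.64 in vehicle (SE 0.140, FDR 0.00616), and its difference in hAAM was 0.24 (SE 0.145, FDR 0.255). Library size alone left 3 up and 2 down in vehicle and 3 up and 3 down in hAAM. Nr5a2, Ppargc1a and Nr2f2 were then called in the same directions in both groups, Nr2f2 in hAAM included (0.55, FDR 0.0298). Between hAAM and vehicle the genes named from the 6 lists differed by -0.39 (Nr2f2) to 0.71 (Lipc) on the log2 scale, at an FDR of 0.966 or more.

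The pattern of each gene over the 12 livers was compared with 10245 protein-coding genes by the root mean square difference of log2 CPM after each gene's own mean was removed. The livers share their scaling factors, so these are descriptions. The 3 genes most like Apob were Gucd1, Rdh10 and Zfyve1, at 0.0499 to 0.0562, where the median gene was at 0.282. Those most like Mttp were Cmtm4, Cpt2 and Hsd17b12 (0.0727 to 0.0872). Apoe was nearest to Rilp, Tecr and Ndrg2 (0.0704 to 0.0751) and Apoc1 to Pccb, Suox and Gstk1 (0.0679 to 0.0884). Apoa2 was nearest to Acsm5, Ugt3a2 and Colec11 (0.0889 to 0.118) and Apom to Atp5f1, Ndufa9 and Tmco1 (0.0725 to 0.0779).

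Apoc3 was nearest to Mrpl18, Tmem14c and Qprt (0.0989 to 0.110) and Apoa1 to Idh2, Bche and Suclg1 (0.148 to 0.150). Apoa5 was nearest to Zpr1, Abca6 and Fnip2 (0.119 to 0.142), and Zpr1 is its neighbour on chromosome 9, 1144 bases beyond its end. Apoa4 had no close match: Wee1, Nqo1 and Adamts6 were nearest at 0.552 to 0.559, against a median gene at 1.09. Among the 10 themselves the closest pairs were Apoc3 with Apom and Apob with Apoe (both 0.129), followed by Apob with Mttp (0.133) and Apoc1 with Apoe (0.135). Cluster neighbours were therefore not always the closest, since Apoa1 with Apoa4 stood at 0.955.

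Markers of cell types were read in the same fit. The 8 hepatocyte markers summed to 81934 to 111600 CPM in control, 86582 to 105999 in vehicle and 86766 to 110295 in hAAM, and 1 rose and 1 fell in each injured group. Their levels mark these samples as liver. Of 10 markers of recruited monocytes and macrophages, 7 rose in both injured groups, and their sum was 146 to 166 CPM in control, 254 to 654 in vehicle and 252 to 655 in hAAM. Of 6 resident Kupffer cell markers 1 rose in each group, with sums of 187 to 253, 211 to 346 and 222 to 317 CPM. Of 6 endothelial markers 3 rose in vehicle and 2 in hAAM, with median log2 differences of 0.62 and 0.45, and their sum was 295 to 323 CPM in control, 337 to 439 in vehicle and 313 to 430.0 in hAAM. Gpihbp1 is an endothelial gene, and the part of these cells in its rise was not tested. Of 6 stellate cell markers 2 rose in each group, with sums of 260.2 to 341 CPM in control, 289 to 321 in vehicle and 301 to 344 in hAAM. No neutrophil, biliary or lymphocyte marker passed, of 5 in each list. Apoe, Abcg1 and Lpl are also expressed by macrophages, and the part of these cells in their values was not tested.

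Because Apoa4 is an intestinal gene as well, 4 intestinal markers were listed, of which Cdx2 was not analysed here. Fabp2 overlapped between groups, at 17.3 to 26.5 CPM in control, 11.4 to 40.3 in vehicle and 11.2 to 39.8 in hAAM, and Vil1 was at most 1.05 CPM in any liver. Cdh17 was at 0 to 2 counts per control liver and rose to between 0.678 and 7.50 CPM in vehicle (FDR 0.00568) and between 0.116 and 5.92 in hAAM (FDR 0.0149). Its part in the Apoa4 result was not tested. Of 5 red cell genes, 4 rose and 1 fell in vehicle and none rose and 1 fell in hAAM, with sums of 135 to 240 CPM in control, 220 to 2025 in vehicle and 226 to 733 in hAAM, and their part in these results was not tested.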

How the data were processed

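Bulk RNA-seq of rRNA-depleted total RNA from 12 mouse livers was analysed. Per the study's methods and the submitters' processing notes, the authors trimmed reads with Cutadapt 4.6, aligned them to GRCm38 with STAR 2.7.1a and counted reads per gene, and they deposited raw counts, with no row total below 15. The strand setting of the counting is not given in the sources used here. The columns of the count table were matched to samples by the labels. Counts were tested in edgeR 4.0.16 (R 4.3.3) by quasi-likelihood, with filterByExpr by group, TMM scaling, 1 fit over all 12 livers and Benjamini-Hochberg adjustment over 22581 genes at an FDR of 0.05. Dispersion corresponded to a biological coefficient of variation of 0.214, and a prior count of 2 entered log2 CPM. Symbols and exon lengths came from GENCODE (GRCm38), which gave 24128 of 24187 genes a symbol. Promoters came from RefSeq. The code was tested on simulated data. Alternatives were DESeq2 1.42.0, limma 3.58.1 voom, other scalings and filters, a replicate block and leaving out livers. The text names all 10 genes, the 2 largest rises and falls called in vehicle for each list, and the 3 genes most like each of the 10, except 1 list gene, which, like 1 of the promoter strings searched, is not reported here. The members and lists were chosen with earlier results of these data known, and the within-liver ratios and 1 combined alternative were added after seeing the data.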

Additional observations from a re-analysis of the deposited data

Results flagged for a closer look

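Of 20 groups of 4 or 5 livers tested over the 10 genes, 1 held a liver that stood apart from the rest by Dixon's criterion. Apoc3 in vehicle replicate 5 was at a log2 CPM of 8.76, while the other 4 vehicle livers lay between 9.25 and 9.43, and the gap took 0.722 of the group's range against a critical value of 0.71. Chance flags about 1 in 20 such groups. The same liver had the highest Apoa4 and Mttp and the lowest Apoc1 of the vehicle group.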

How the results depend on the processing

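Under an FDR of 0.01, 2 members were called in vehicle against control (3183 of all genes) and 0 in hAAM against control (1543). DESeq2 called 7 members in vehicle against control (7678 of all genes), and 1 gene of all between hAAM and vehicle. In hAAM against control 7340 genes were called under library size scaling and 2729 in a fit of only those groups. A replicate block called 4253 genes in vehicle, 1 member and 2959 genes in hAAM against control, and 0 members between hAAM and vehicle. The labels share replicate numbers, but deviations of same-numbered livers correlated at -0.458 to 0.385, so no pairing was read from them. Under the block Apoe in vehicle had an FDR of 0.122, and Apoc1 and Mttp in hAAM 0.0647 and 0.0599. Without the 10 most abundant genes the summed shares were 1.84%, 1.99% and 2.11%.

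Leaving out 1 liver gave 2 to 6 members in vehicle against control (4633 to 7197 of all genes), 0 to 4 in hAAM against control (2419 to 5456 of all genes) and 0 to 1 of all genes between hAAM and vehicle. The lowest came without control replicate 1 in vehicle. In hAAM it was 0 members without control replicate 3, and 1 without control replicate 1, hAAM replicate 1 or hAAM replicate 2, which left 3027, 2799 and 2942 genes in all. The 1 gene between hAAM and vehicle appeared without vehicle replicate 3. Log2 estimates near 0 changed sign: Apoc3 in hAAM against control ran from -0.062 to 0.15, and between hAAM and vehicle Apob ran from -0.025 to 0.15, Apoa2 from -0.062 to 0.32, Apoa5 from -0.095 to 0.14, Apoe from -0.047 to 0.23 and Mttp from -0.014 to 0.12.

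Library size scaling also reversed signs. In vehicle Apoc3 was at 0.17 and Apom at 0.046 (0.15 and 0.040 with the near-identical pair left out too, an alternative chosen after seeing the data), and in hAAM against control Apom was at 0.17 (0.21). Between hAAM and vehicle Apoa5 was at -0.026 (-0.035, with Mttp at -0.0038 and 1 gene of all called), and at -0.0022 under the replicate block. List medians against control turned to 0.058 for other apolipoproteins in hAAM, 0.066 and 0.083 for assembly partners, and 0.0044 and 0.0025 for transcription regulators. All of these stayed below the medians of all genes under that scaling, 0.357 in vehicle and 0.317 in hAAM. Between hAAM and vehicle list medians turned to -0.0048 for receptors and -0.037 for transcription regulators, where all genes stood at -0.040. The cause of the other changes was not tested. Every member had at least 5237 counts in every liver.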
